A study of Mus musculus with 4 samples.

Results

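A set of 5 microRNAs (miRNAs) with known links to cell stress or to smooth muscle were followed in whole mouse blood: miR-34a (mmu-mir-34a in the lists) and miR-34c of the miR-34 family, the neighbouring pair miR-143 and miR-145a, and miR-210 (mmu-mir-210). They were chosen by name, as the p53-linked, smooth muscle and hypoxia-linked names of a fixed rule, and are 5 of 374 annotated miRNA loci in the count lists; miR-34b was not analysed here. Of the 5, 4 were among the 276 loci tested, and miR-34c had too few reads for the test. The blood came from Balb/c mice aged 180 days. The control group, with 2 libraries, had ordinary feed and water. The cadmium group, also with 2 libraries, drank water with cadmium added, a toxic metal. The sources used here give neither the dose nor the length of exposure. No label says that a group's libraries are separate animals, so a p-value here reflects only how far these libraries spread, which may be technical. Reads of annotated loci summed to between 14383852 and 35244119 per library, with both controls deeper than both cadmium libraries. These sums count the reads of a sequence again at each of its copies. With each sequence counted once they were between 8876594 and 21383291. The levels given below were scaled with the copies included.

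A miRNA is a short RNA that pairs through its seed, bases 2 to 8, with messenger RNAs and lowers their translation or stability. The miR-34 genes are transcribed directly by p53, the DNA damage response factor, and their miRNAs restrain cell cycle genes. miR-143 and miR-145 are made from one primary transcript in smooth muscle, and p53 is known to favour the processing of both. miR-210 is induced by the hypoxia-inducible factor HIF in most cell types and also rises as red cells mature. In bulk blood RNA, fewer cells of a type and less RNA per cell cannot be told apart.

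The sequences below show which miRNAs share a seed and therefore a set of potential targets. The seed is in capitals, and the sequences and positions are those of RefSeq on GRCm38.p6, which shares its coordinates with the mm10 build of the files. Both miR-34 sequences and both miR-449 sequences carry the seed GGCAGUG, while miR-210 has its own.
miR-34a-5p: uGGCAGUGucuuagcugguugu
miR-34b-5p: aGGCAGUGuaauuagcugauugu
miR-449a-5p: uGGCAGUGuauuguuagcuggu
miR-449c-5p: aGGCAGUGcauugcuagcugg
miR-210-3p: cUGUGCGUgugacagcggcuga
miR-34a-5p and miR-449a-5p had the same first 9 bases and the same base at 15 of 22 positions when aligned from the 5′ end without gaps. Among the annotated loci in the lists, 4 had the miR-34 seed: miR-34a, miR-34c, miR-449a and miR-449c. The seeds of miR-143, miR-145a and miR-210 were each found at 1 locus, their own.

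The hairpins of miR-34a and miR-210 are shown with the bases counted in these libraries in capitals, since the counts refer to 1 arm of each precursor. The miR-34a precursor lies at chr4:150068454-150068555 on the plus strand, and its 5′ arm was counted.
Mir34a hairpin: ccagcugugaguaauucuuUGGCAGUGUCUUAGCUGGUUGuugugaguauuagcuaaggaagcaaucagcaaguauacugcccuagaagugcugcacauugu
The miR-210 precursor lies at chr7:141221384-141221493 on the minus strand, and its 3′ arm was counted.
Mir210 hairpin: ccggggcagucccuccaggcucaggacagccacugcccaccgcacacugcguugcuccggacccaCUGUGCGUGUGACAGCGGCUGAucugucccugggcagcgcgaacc
All 5 miRNAs were counted over the same window in all 4 libraries. The windows were 19 bases for miR-143, 21 for miR-34a, 22 for miR-145a and miR-210, and 23 for miR-34c.

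In the annotation, miR-210 (chromosome 7, 141221407 to 141221428) lies between Rassf7, 2749 bases away, and Phrf1, 7356 bases away, in no other gene. The window of miR-34a (chromosome 4, 150068473 to 150068493) lies 46 bases before Gm37795 and in no other gene than Mir34a. miR-34c (chromosome 9, 51103076 to 51103098, minus strand) lies in an intron of Btg4, which is on the opposite strand. miR-143 (chromosome 18, 61649201 to 61649219) and miR-145a (chromosome 18, 61647867 to 61647888), both on the minus strand and 1312 bases apart, fall within Carmn in RefSeq, a noncoding RNA gene known as the host of both; in the GENCODE release used here Carmn ends 406 bases before miR-143.

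Levels of the 5 miRNAs ran from the upper part of the range in this blood to its lower end. On the scale of CPM (reads scaled to a common library total, with TMM normalization, which sets a factor per library from the bulk of loci), the order in every library was miR-210, miR-143, miR-145a, miR-34a and miR-34c. By mean CPM over the 4 libraries, miR-210 ranked 53rd, miR-143 69th and miR-145a 116th of the 211 distinct tested sequences, and miR-34a was 13th from the lowest. The 95% Poisson intervals of miR-34a and miR-34c overlapped in each library, so these neighbours in the order could not be separated within counting error, while those of the other neighbours did not overlap. These intervals cover counting error only, and small RNA cloning can favour some sequences, which limits any comparison of levels between miRNAs.

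**Figure D1:**
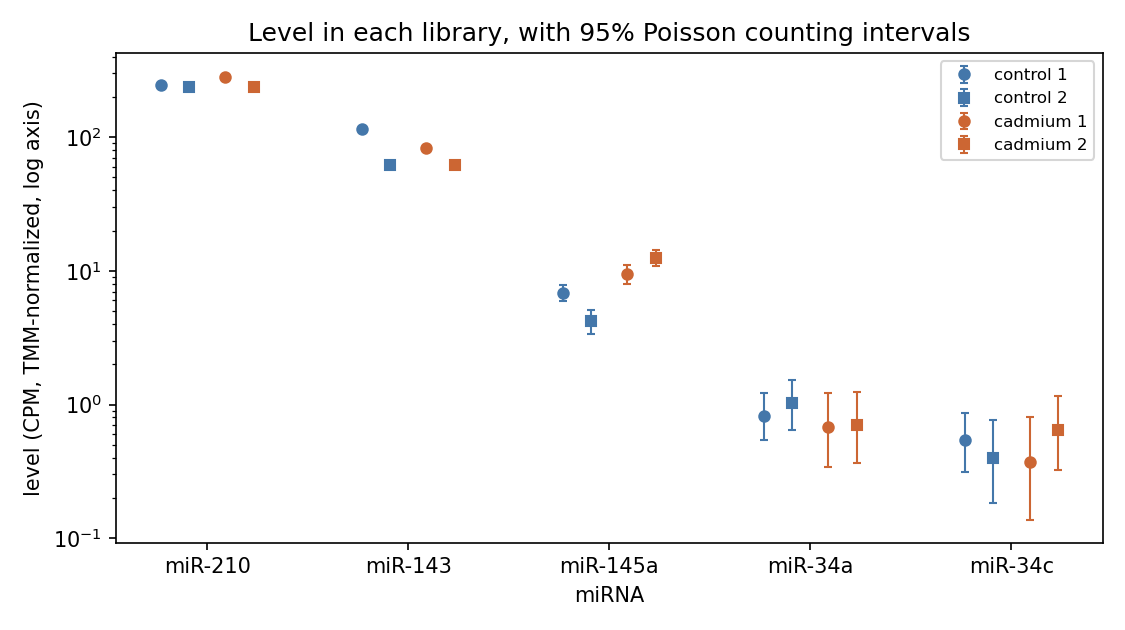
Level of each miRNA in each library (CPM, log axis; circles are library 1 and squares library 2 of a group; bars are 95% Poisson intervals). miR-210 sits between 236 and 282 CPM in all 4 libraries, and both cadmium libraries of miR-145a lie above both controls.

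The question put to these libraries is which blood miRNAs differ with cadmium. Of the 4 tested miRNAs, miR-145a was about 2 times higher with cadmium and just missed the threshold, and miR-34a, miR-143 and miR-210 had intervals that include no change. With edgeR's quasi-likelihood test, 0 of the 4 passed an adjusted p of 0.05, against 14.5% of all tested loci, and 1, miR-145a, had an unadjusted p under 0.05, as had 79 of the 276. DESeq2 and edgeR's exact test each called 1 of the 4, miR-145a, and limma voom called 0. Over all 276 tested loci these methods called 51, 48 and 38. The libraries of the groups did not overlap for 2 of the 4, miR-34a and miR-145a, against 69.9% of all tested loci.

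miR-34a, the family member most closely tied to p53, was close to the lower limit of these lists. It had 26 reads in control 1 and 23 in control 2, against 11 in cadmium 1 and 12 in cadmium 2. The lowest count in any list was 5. As levels these are 0.827 and 1.03 CPM in controls and 0.680 and 0.706 CPM with cadmium. Both cadmium libraries were lower than both controls, but the Poisson interval of the lowest, 0.339 to 1.22 CPM, spans all 4 values. The group means were 0.926 ± 0.140 and 0.693 ± 0.0185 CPM (SD, n = 2 each). The log2 fold change was -0.40 ± 0.37 (SE; edgeR adjusted p = 0.444), with a 95% interval from 2.39-fold lower to 1.37-fold higher. It was -0.11 with total counts and -0.25 without control 2.

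miR-34c, made with miR-34b from a second p53-driven gene, was rarer still. It had 17 reads in control 1 and 9 in control 2, against 6 in cadmium 1 and 11 in cadmium 2. As levels these are 0.541 and 0.401 CPM in controls and 0.371 and 0.647 CPM with cadmium. The highest and the lowest level were both in the cadmium group, so the groups overlapped. At this depth a difference in miR-34c was not detectable, and without the filter on low counts its value was 0.09 on the log2 scale (edgeR adjusted p = 0.871).

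Nearly all reads with the miR-34 seed came from miR-449a and miR-449c, which lie in an intron of Cdc20b on chromosome 13 and are known from ciliated epithelia. Reads of the 4 loci together stood at 151 and 203 CPM in controls 1 and 2, against 153 and 144.3 CPM in cadmium 1 and 2. miR-449a made up 88.5% and 86.5% of them in the controls and 86.0% and 86.5% with cadmium. miR-34a made up 0.548% and 0.505% in the controls and 0.443% and 0.489% with cadmium. The 95% Wilson intervals of the miR-34a shares overlapped in all libraries, the widest running from 0.280% to 0.854%. There were therefore 161 and 171 reads of miR-449a for each read of miR-34a in controls 1 and 2, against 194.2 and 177 in cadmium 1 and 2. The log2 fold change was -0.27 ± 0.21 for miR-449a (edgeR adjusted p = 0.409) and -0.12 ± 0.28 for miR-449c (edgeR adjusted p = 0.763).

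miR-143 and miR-145a differed in direction with TMM scaling, with miR-145a higher with cadmium and miR-143 within the spread of the libraries. miR-143 had 3604 reads in control 1 and 1398 in control 2, against 1341 in cadmium 1 and 1049 in cadmium 2. Its levels were 115 and 62.3 CPM in controls and 82.9 and 61.7 CPM with cadmium. Control 1 was the highest, control 2 stood beside cadmium 2 at the bottom, and the groups overlapped. The log2 fold change was -0.29 ± 0.32 (SE; edgeR adjusted p = 0.521), with a 95% interval from 2.05-fold lower to 1.37-fold higher. Its sign rested on control 1: the value was 0.21 without that library and -0.67 without control 2, where it passed the test (edgeR adjusted p = 1.39e-06) with the lone control assumed to vary like the cadmium pair. Scaled by total counts it was 0.01.

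miR-145a, a repressor of pluripotency factors and a marker of contractile smooth muscle, had 216 reads in control 1 and 94 in control 2, against 153 in cadmium 1 and 211 in cadmium 2. Its levels were 6.87 and 4.19 CPM in controls and 9.46 and 12.4 CPM with cadmium. Both cadmium libraries were above both controls, and the Poisson intervals of the higher control (5.99 to 7.85 CPM) and the lower cadmium library (8.02 to 11.1 CPM) did not overlap. The group means were 5.53 ± 1.90 and 10.9 ± 2.09 CPM (SD, n = 2 each). The log2 fold change was 0.97 ± 0.30 (SE; edgeR adjusted p = 0.0703), with a 95% interval from 1.21-fold to 3.18-fold higher for this locus taken alone.

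The call of miR-145a depended on the setting, while its direction was the same in the 19 alternatives that gave a value, where its log2 fold change ran from 0.67 to 1.38. It passed in 8 of them, including total counts (1.27, edgeR adjusted p = 0.0194) and DESeq2 (0.89, DESeq2 adjusted p = 0.0499). With 1 control left out, the other was assumed to vary like the cadmium pair. There miR-145a passed, at a log2 fold change of 1.38 without control 1 and 0.67 without control 2. It did not pass without cadmium 1 (edgeR adjusted p = 0.209) or cadmium 2 (edgeR adjusted p = 0.363). Scaling by total counts moves the median log2 fold change of all loci up by 0.30, and relative to that median miR-145a stood at 0.89 with both TMM and total counts.

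**Figure D2:**
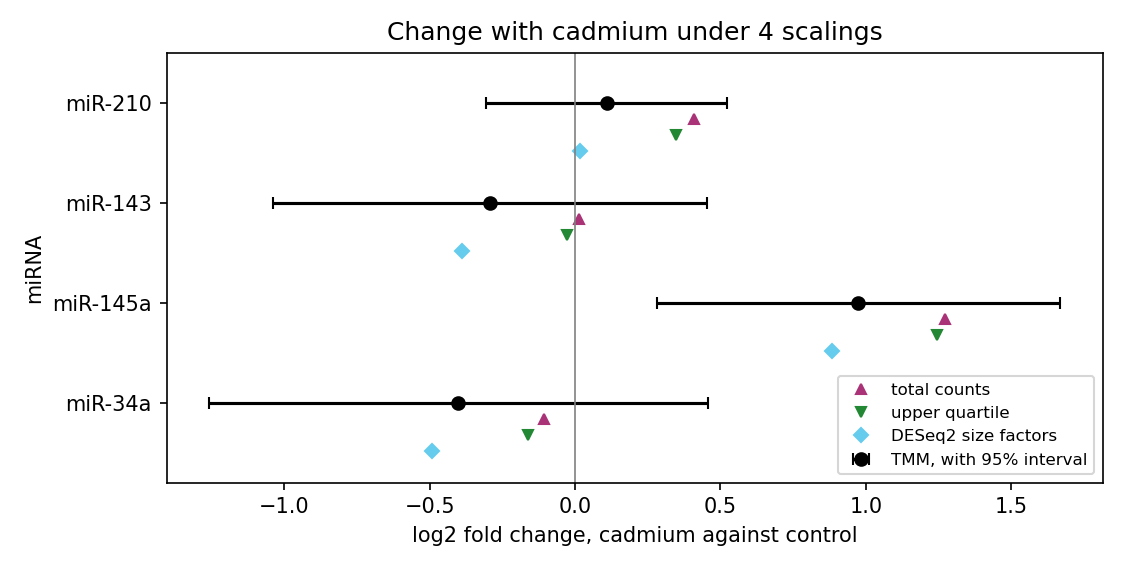
Log2 fold change of the 4 tested miRNAs, cadmium against control (circles with 95% intervals for TMM; triangles and diamonds for 3 other scalings, with no interval). The miR-145a values lie between 0.88 and 1.27, while miR-143 lies on either side of 0.

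The ratio of the pair within a library does not depend on scaling between libraries. There were 16.7 and 14.9 reads of miR-143 for each read of miR-145a in controls 1 and 2, against 8.76 and 4.97 in cadmium 1 and 2. Both cadmium ratios were under both control ratios, by 2.39-fold between the group means (log2 difference -1.25). This ratio was chosen after the values were seen, and the exact two-sided permutation test gave p = 0.333, the smallest that 2 libraries against 2 allow. Leaving out each library in turn gave log2 differences from -1.66 to -0.85. Pairs of neighbouring miRNAs often differ in this blood: of 60 pairs of adjacent tested loci within 10 kb on 1 strand, with copies of the same 2 sequences counted once, 8 had a larger gap between their log2 fold changes than the 1.27 of miR-143 and miR-145a, and the median gap was 0.60.

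Whole blood holds little smooth muscle, so other miRNAs of muscle and vessel wall were read beside the pair. The smooth muscle list, which includes miR-143 and miR-145a themselves, had 7 tested loci of 10 names. With edgeR's quasi-likelihood test 0 passed in either direction, against 14.5% of all tested loci. An unadjusted p under 0.05 was found for 2, miR-145a and miR-222, against 79 of all 276. DESeq2 and edgeR's exact test called 1 each, miR-145a, and limma voom 0, against 51, 48 and 38 of all 276. The median log2 fold change was 0.45, against 0.08 over all tested loci. The 7 loci hold 6 sequences, since the copies of miR-133a carry the same reads. With 1 locus per mature sequence the median was 0.32, against 0.09 over all loci. miR-21a and miR-221, its most abundant members and both growth-linked in vessel wall, had -0.03 ± 0.10 and 0.22 ± 0.14. miR-133a, of striated and smooth muscle, had 1074 reads in control 1 and 294 in control 2, against 695 in cadmium 1 and 699 in cadmium 2, and its value was 0.83 ± 0.41 on the log2 scale (edgeR adjusted p = 0.237). In CPM, miR-133a and miR-145a were lowest in control 2. miR-143 was lowest in cadmium 2, and miR-21a, miR-221 and miR-222 in control 1, so the list had no shared lowest library. The platelet and endothelial markers miR-126a and miR-199a, whose 3 loci hold 2 sequences, summed to 191 to 256 CPM in controls and 190 to 212 CPM with cadmium, so they overlapped. The part of these cells in the miR-145a difference was not tested.

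Of the 5, miR-210 had the smallest fold between its highest and its lowest library. It had 7654 reads in control 1 and 5316 in control 2, against 4561 in cadmium 1 and 4018 in cadmium 2. Its levels were 244 and 237 CPM in controls and 282 and 236 CPM with cadmium. Cadmium 1 was the highest library and cadmium 2 the lowest, so the control values lay inside the cadmium range. The log2 fold change was 0.11 ± 0.18 (SE; edgeR adjusted p = 0.689), with a 95% interval from 1.24-fold lower to 1.44-fold higher. Without cadmium 1 it was -0.02, and with total counts it was 0.41 (edgeR adjusted p = 0.154), where the median of all loci was 0.38.

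Set against red cell miRNAs, the picture for miR-210 depended on the partner. There were 540 and 566 reads of miR-16, an abundant blood miRNA, for each read of miR-210 in controls 1 and 2, against 453 and 553 in cadmium 1 and 2, so the groups overlapped (log2 difference of miR-210 to miR-16 0.14, exact two-sided permutation p = 0.667). Without cadmium 1 that difference was -0.000995, and without cadmium 2 it was 0.29. There were 1072 and 1034 reads of miR-486 for each read of miR-210 in controls 1 and 2, against 572 and 732 in cadmium 1 and 2. The ratio of miR-210 to miR-486 was thus higher in both cadmium libraries, by 0.70 on the log2 scale (exact two-sided permutation p = 0.333, the smallest possible). The red cell markers miR-486 and miR-144, 2 of 3 names fixed for that cell type, summed to between 258776 and 279737 CPM in controls and between 172101 and 183915 CPM with cadmium, and both fell. The part of the red cell miRNAs in the miR-210 values was not tested. Among markers of other blood cells, the leukocyte miRNA miR-142 was the 1 tested of 2 names fixed as myeloid. It stood at 5510 to 5963 CPM in controls and 5060 to 5908 CPM with cadmium. The 3 lymphocyte sequences summed to 3299 to 4401 CPM in controls and 2220 to 2222 CPM with cadmium.

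The p53-linked and the hypoxia-linked members were also set against each other. The ratio of miR-34a to miR-210 was lower in both cadmium libraries, with 294 and 231 reads of miR-210 for each read of miR-34a in controls 1 and 2, against 415 and 335 in cadmium 1 and 2. The log2 difference was -0.51 (exact two-sided permutation p = 0.333, the smallest possible), and it rests on the few reads of miR-34a; without control 2 it was -0.34. The ratio of miR-34a to miR-16 had a log2 difference of -0.37 (exact two-sided permutation p = 0.333), and -0.23 without control 2.

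**Figure D3:**
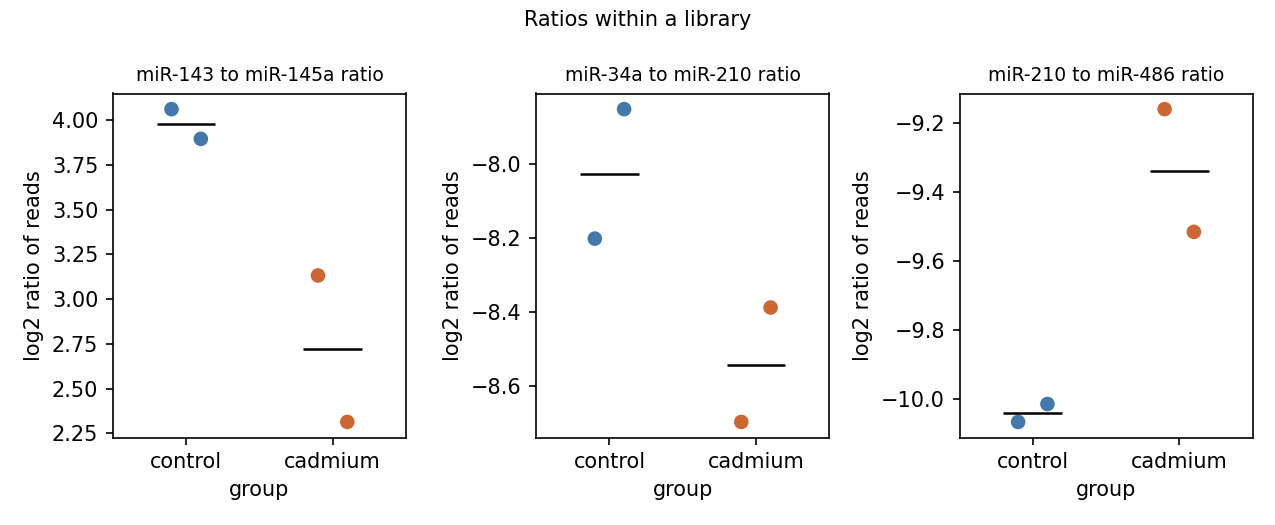
Log2 ratio of reads of 2 miRNAs within each library, by group (points are libraries, lines are group means; each panel has its own axis). In all 3 panels the control and cadmium libraries do not overlap, and the group means of the miR-143 to miR-145a ratio differ by -1.25. In CPM, 69.9% of all tested loci do not overlap either. Not drawn are the miR-210 to miR-16 ratio, which overlaps, and the miR-34a to miR-16 ratio, which does not.

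The loci whose profiles over the 4 libraries lay nearest to each member were named by a fixed rule, the Euclidean distance between log2 CPM profiles after subtraction of each mean, a description over 4 libraries. For miR-34a these were miR-301a (distance 0.04), miR-30e (0.04) and miR-467a-1 (0.16). The miR-34a profile rests on 11 to 26 reads per library, with a Poisson interval of 0.339 to 1.22 CPM in cadmium 1. Its nearest loci are therefore uncertain. miR-210 was nearest to miR-1191b, miR-425 and miR-15a (0.08, 0.09 and 0.11). The nearest to miR-143 were miR-199a-1, miR-1934 and miR-127 (0.29, 0.29 and 0.33), and the nearest to miR-145a were miR-1191, miR-1982 and miR-195a (0.24, 0.26 and 0.34). Of these, miR-1191 and miR-195a rose and miR-30e fell in the test (edgeR adjusted p = 0.0323, 0.0195 and 0.0378). Over all tested loci the share called was 14.5%. By level, miR-210 stood between miR-322 at 309 CPM and miR-130b at 225 CPM, miR-143 between miR-24 at 105 CPM and miR-331 at 78.2 CPM, miR-145a between miR-20b at 8.38 CPM and miR-3473d at 8.13 CPM, and miR-34a between miR-208b at 0.880 CPM and miR-434 at 0.805 CPM.

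**Figure D4:**
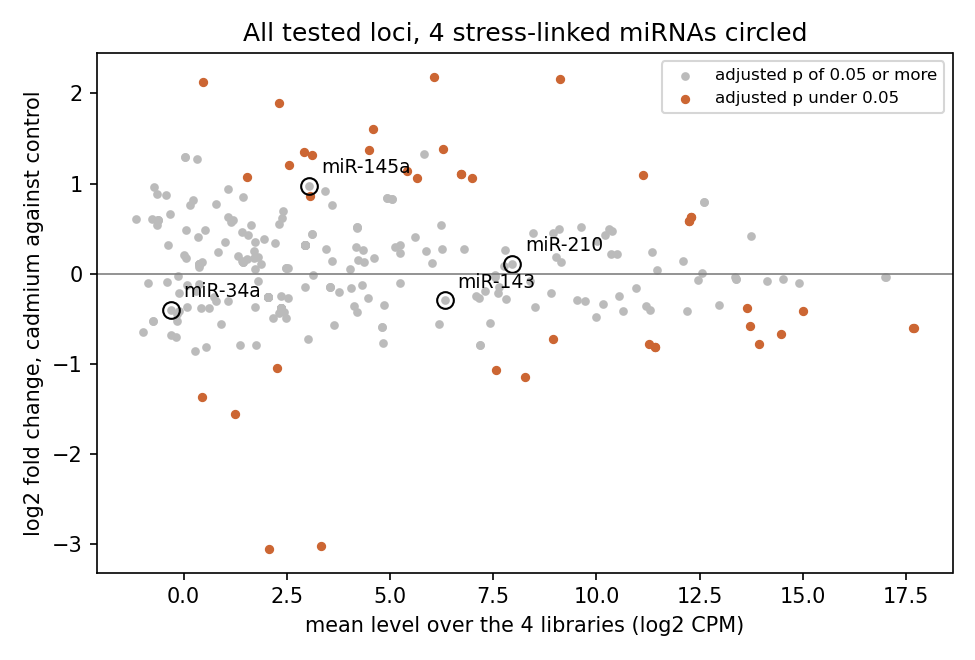
Log2 fold change with cadmium against mean level (log2 CPM) for the 276 tested loci; orange points passed an adjusted p of 0.05 and the 4 circled points are miR-34a, miR-145a, miR-143 and miR-210 from left to right. miR-145a at 0.97 lies beside loci that passed, and the other 3 lie among those that did not.

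Other miRNAs tied to p53 were read together with the p53-linked members. The p53-linked list, of miRNAs induced by p53 or processed more under it, had 12 tested loci of 16 names, the members miR-34a, miR-143 and miR-145a included. With edgeR's quasi-likelihood test 0 rose and 0 fell, against 7.97% of all tested loci higher and 6.52% lower. An unadjusted p under 0.05 was found for 2, miR-145a and miR-107, against 79 of all 276. DESeq2 and edgeR's exact test called 1 each, miR-145a, and limma voom 0, against 51, 48 and 38 of all 276 tested loci. Beside these shares, so few calls among 12 loci are not a result about these miRNAs. Scaled by total counts, 4 of the list rose and 0 fell, against 57 and 8 of all tested loci. The median log2 fold change was -0.04, and 5 of the 12 values were above 0. miR-16 and miR-15a, its most abundant sequences and both repressors of cell cycle genes, had -0.04 ± 0.07 and 0.04 ± 0.12. The clustered p53 targets miR-192, miR-194 and miR-215 had -0.24 ± 0.16, -0.25 ± 0.20 and 0.54 ± 0.25. Of the miRNAs that bind the messenger RNA of p53 itself, 3 loci of 2 sequences were tested and 0 passed with edgeR's quasi-likelihood test, DESeq2, edgeR's exact test or limma voom, with 1 at an unadjusted p under 0.05. Over all tested loci the share called was 14.5%, against which 0 of 3 is not a result about these miRNAs. miR-30d had -0.35 ± 0.10 (edgeR adjusted p = 0.0674) and miR-125b 0.44 ± 0.39.

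The hypoxia-linked list had 11 tested loci, of which 4 rose and 0 fell, against 7.97% of all tested loci higher and 6.52% lower, with miR-210 not among them. The 4 are copies that carry the same reads, so they are 2 sequences, miR-24 and miR-103. miR-24, a cell cycle repressor, went from 66.9 ± 5.66 to 143.4 ± 2.54 CPM (SD, n = 2 each; log2 fold change 1.10 ± 0.20, edgeR adjusted p = 0.00979). miR-103, which lies within the pantothenate kinase genes, went from 3896 ± 519 to 6038 ± 31.1 CPM (0.63 ± 0.13, edgeR adjusted p = 0.0133). Its close relative miR-107 had 0.52 ± 0.16 (edgeR adjusted p = 0.0710), and miR-26a, the most abundant member, had -0.06 ± 0.12. miR-26b went the other way from miR-107, at -0.41 ± 0.13 (edgeR adjusted p = 0.0709). DESeq2 called 5 rises and 1 fall in the list, against 23 and 28 of all 276 tested loci. edgeR's exact test called 5 and 0, against 29 and 19, and limma voom 4 and 0, against 22 and 16. The median of the list was 0.52, against 0.08 over all tested loci. With the replicate number as a block the count was 0 in place of 4. With either cadmium library left out fewer passed. With either control left out more passed, falls among them. The count over all tested loci moved the same way in each case. The list median ran from 0.35 to 0.50 with 1 library left out.

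In the list of HIF-targeting miRNAs, of 7 tested loci 2 rose and 1 fell, against 7.97% of all tested loci higher and 6.52% lower, with a median of -0.15. The split depended on scaling: with total counts 3 rose and 0 fell, with a median of 0.15. miR-18a rose from 202 ± 74.2 to 902 ± 27.8 CPM (2.16 ± 0.26, edgeR adjusted p = 0.00204) and miR-20b by 0.86 ± 0.24 (edgeR adjusted p = 0.0486). miR-322, the mouse form of a hypoxia-induced miRNA of endothelium, is known to act on Cul2, a part of the complex that degrades HIF protein, rather than on HIF messenger RNA. It fell by 1.15 ± 0.27 on the log2 scale (edgeR adjusted p = 0.0268). miR-17, the most abundant with miR-18a, had 0.22 ± 0.13. miR-18a passed in all 20 alternatives run for it, but miR-20b missed the threshold in 9 of 19 and miR-322 in 6 of 20. The alternatives that lost miR-20b with all 4 libraries kept include DESeq2 size factors (edgeR adjusted p = 0.0732), 1 locus per sequence (0.0654) and the replicate number as a block (0.0766). Those that lost miR-322 include total counts (edgeR adjusted p = 0.0637), unlisted loci as 0 reads (0.0653) and the block (0.0761). Without cadmium 1, or without cadmium 2, 1 of the 3 calls was left, and without control 1 there were 5.

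**Figure D5:**
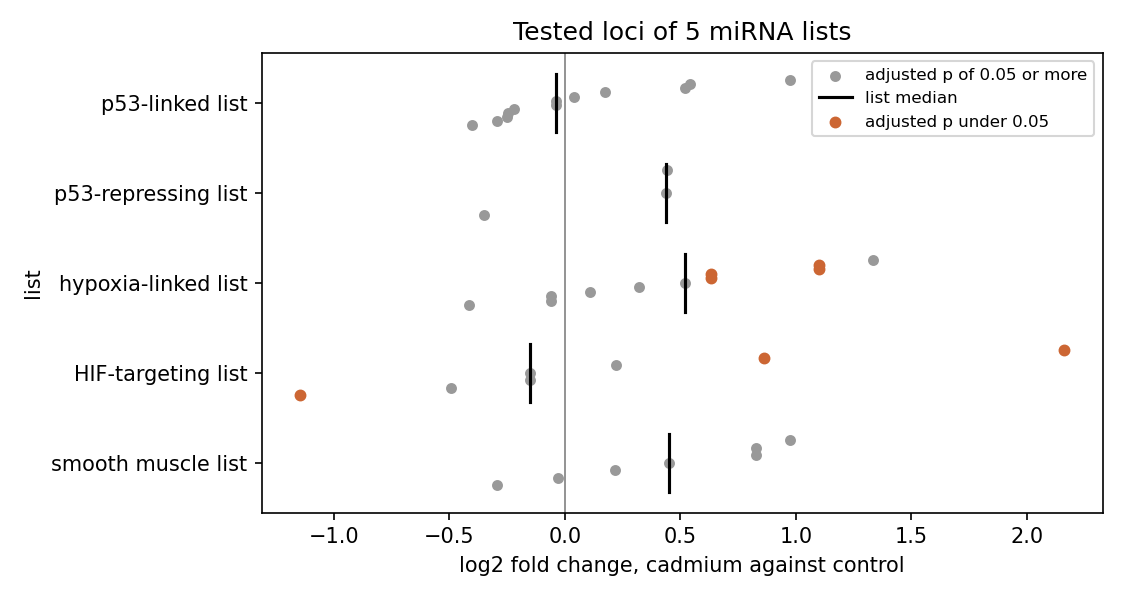
Log2 fold change with cadmium of the tested loci of 5 miRNA lists (points are loci, spread vertically within a list; orange points passed an adjusted p of 0.05; black lines are list medians). Calls are in the hypoxia-linked list, with 4 rises, and in the HIF-targeting list, with 2 rises and 1 fall.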

How the data were processed

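Small RNA libraries were made from whole blood RNA and sequenced, per the labels' protocols. The deposited values are counts of mature reads per listed locus, not normalized. Bowtie 0.12.2, DESeq and the mm10 build are named in the submitters' processing notes, with no role; the sources used here give neither locus caller nor miRNA release. A row with no name in cadmium 1, the column total, was left out. No list goes below 5 reads, so an unlisted locus is not taken as 0. Star names at the same locus were merged. The sequence column of control 2 did not follow its rows and was not used.

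The test was edgeR 4.0.16 in R 4.3.3 (quasi-likelihood F test, TMM, filterByExpr, two-sided, Benjamini-Hochberg over all loci, threshold 0.05), with a group term alone, which leaves 2 residual degrees of freedom among libraries. Tested were annotated loci that all 4 libraries list on the same arm (277, of which the filter removed miR-34c). A standard error is the absolute log2 fold change over the root of F. The test was tested on simulated data. Members and lists were chosen with earlier results of these data known. Named loci are all members, and the loci of each list past the threshold with its 2 most abundant sequences. Also named are the 3 nearest profiles and the neighbours in level of each tested member. miR-26b, miR-107, miR-133a, miR-192, miR-194, miR-215 and the miR-449 loci were named after their values were seen. Alternatives used DESeq2 1.42.0, limma 3.58.1, other scalings, filters and locus sets, a replicate block, and each library left out. Tables and figures used SciPy 1.17.1, pandas 2.3.3 and matplotlib 3.10.9 under Python 3.11.15.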

Additional observations from a re-analysis of the deposited data

How the results depend on the processing

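The 4 libraries limit what these values show, and the 26 or fewer reads of miR-34a and miR-34c limit those 2 members further. Leaving out 1 library leaves its group with 1, which is then assumed to vary like the other group. Over all tested loci, 40 passed; the count was 65 with total counts and also with the total of every listed sequence counted once, 26 under a minimum mean CPM of 10, 83 with predicted loci included, and 8 to 122 with 1 library left out. Of the calls, 22 were higher and 18 lower, against 57 and 8 by total counts, 48 and 9 by the upper quartile, 21 and 27 by DESeq2 size factors.

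The direction of miR-34a was the same in 19 alternatives, at -0.56 to -0.11, and it passed in none of the 18 with an adjusted p; DESeq2 gave it none. miR-34a and miR-145a were removed by the filter at a mean CPM of 10. miR-210 passed in none of 20 and turned negative in 1, without cadmium 1 (-0.0234); 1 library left out gave -0.0234 to 0.23. miR-143 turned to 0.0135 with total counts and 0.00049 with the total of every listed sequence once, and 1 library left out gave -0.67 to 0.21. miR-145a passed with total counts (1.27), the upper quartile (1.25), the total of every listed sequence once (1.26), DESeq2 (0.89), edgeR's exact test (0.98) and predicted loci included (1.06), and 1 library left out gave 0.67 to 1.38. With 1 library left out, the log2 difference ran from -0.000995 to 0.29 for miR-210 to miR-16, 0.52 to 0.88 for miR-210 to miR-486, -0.51 to -0.23 for miR-34a to miR-16, -0.69 to -0.34 for miR-34a to miR-210 and -1.66 to -0.85 for miR-143 to miR-145a. The 2 controls differed more from each other (correlation of log2 CPM 0.992) than the 2 cadmium libraries (0.998). The cause of these moves was not tested.

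In the p53-linked list the count of 0 became 4 with total counts and with the total of every listed sequence once, 3 with the upper quartile, 1 with DESeq2 and with edgeR's exact test, 2 with predicted loci included, and 0 to 7 with 1 library left out. In the p53-repressing list the count of 0 became 1 with DESeq2 size factors (48 of 276 over all loci). It became 1 with different arms kept (46 of 288) and with unlisted loci as 4 reads (46 of 296), each time a fall. The median of this list ran from -0.06 to 1.23 with 1 library left out. In the smooth muscle list the count of 0 became 3 with total counts and with the total of every listed sequence once. It became 4 with the upper quartile and with predicted loci included, and 1 with DESeq2 and with edgeR's exact test. It was 1 with unlisted loci as 0 reads (40 of 296 over all loci) and as 4 reads (46 of 296). The median of this list ran from 0.30 to 0.50 with 1 library left out. In the p53-linked, p53-repressing and smooth muscle lists, loci passed with either control left out but not with either cadmium library left out. The 4 of the hypoxia-linked list became 2 under a minimum mean CPM of 10 (26 of 128 over all loci). They became 2 with 1 locus per mature sequence as well (29 of 211 over all loci). The 3 of the HIF-targeting list became 1 with unlisted loci as 0 reads, and 1 to 5 with 1 library left out.

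With the replicate number as a block, 19 loci passed in place of 40, 0 in place of 4 of the hypoxia-linked list and 1 in place of 3 of the HIF-targeting list, while miR-145a had an edgeR adjusted p = 0.140. The deviations of same-numbered libraries had a correlation of 0.03 across loci. With 1 such value it cannot be told whether they share an animal, a litter or a day, and no label says so.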
